A study of Homo sapiens with 4 samples.

Results

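The p53 metabolic and DNA repair targets are 10 genes that the transcription factor p53 is known to activate. Their products act in metabolism, growth signalling, redox control and DNA repair, and their transcripts were followed in HCT116 cells depleted of LAS1L. HCT116 is an established human colorectal carcinoma line. The genes were SESN1, SESN2, TIGAR, FDXR, RRM2B, XPC, DDB2, POLH, TP53INP1 and FUCA1. They were taken by gene symbol, current or older, from all 20039 genes named on the array, and 9 of the 10 had at least 1 probe. No probe carried the symbol FDXR in the annotation used, so the FDXR transcript was not analysed here. The 9 genes had 12 probes, since RRM2B, POLH and TP53INP1 had 2 each.

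Every culture received 40 nM siRNA by reverse transfection and was sampled after 72 h, and total RNA was read on Illumina HumanHT-12 v4 bead arrays. The control group holds 2 arrays of cells given 1 control siRNA. The Las1L group holds 2 arrays, of which 1 had Las1L siRNA #1 and 1 had Las1L siRNA #2. No label gives separate cultures for the control arrays, so the p-values measure only the spread between these samples, which may be technical.

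p53 is a stress-activated transcription factor that is kept low by the ubiquitin ligase MDM2. Disturbed ribosome production is known to free ribosomal proteins that bind MDM2, which lets p53 accumulate, and LAS1L is a nucleolar protein needed for large-subunit ribosomal RNA processing. Besides arrest and death genes, p53 activates genes that slow growth signalling, redirect sugar metabolism, supply deoxynucleotides and recognise or bypass DNA lesions, and the 10 genes belong to this group.

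The siRNAs are shown because they define the groups. Each was given in the labels as a strand of 19 bases with a deoxythymidine overhang at its end, which is left out here, and no base is capitalised.
control siRNA: gaucauacgugcgaucaga
Las1L siRNA #1: cugauacgcuguaagcucu
Las1L siRNA #2: cauuuauacccagagugga

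The targeted transcript was lower on both Las1L arrays. The LAS1L probe (ILMN_1774890) read 770 and 717.5 signal units on the control arrays, against 211.5 for siRNA #1 and 158.1 for siRNA #2. Its log2 difference was -2.02 (SE 0.14, adjusted p = 2.3e-07 in limma). Between 17280 and 17284 probes per array exceeded a background limit of 28.1 units, and each array had a median of 14.9. Of 10 colon epithelial markers 6 exceeded the limit on all arrays, among them EPCAM, KRT8 and CDX2, while KRT20, CDX1 and VIL1 were under it on all 4. Of 14 fibroblast, endothelial and leukocyte markers with a probe, 8 were under the limit on all 4 arrays, among them PTPRC, PECAM1 and COL3A1, and CD68 was the only one over it on all 4. Their summed signal was 371 and 477.6 units on the control arrays and 390 and 443.8 on the Las1L arrays. Each array averages a culture, so a higher level per cell and a larger share of expressing cells cannot be told apart.

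Transcripts of 6 of the 9 genes rose after LAS1L depletion, and none fell. SESN1 was 4.02-fold higher, SESN2 2.59-fold, DDB2 2.44-fold, TIGAR 1.72-fold and XPC 1.64-fold, and the 2 TP53INP1 probes were 1.95-fold and 1.74-fold higher. RRM2B, POLH and FUCA1 did not pass the test. Of the 12 probes 11 exceeded the background limit on at least 2 arrays and were tested, and 9 exceeded it on all 4. None of the 11 had both control arrays under the limit. SESN2 and the tested POLH probe had 1 control array under it, so they met the filter only with the Las1L arrays counted.

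Differences are of log2 signal, with values under 16 set to 16, in limma with a prior variance that follows mean signal, and the adjusted p is Benjamini-Hochberg over all 17689 tested probes. A gene is said to have risen or fallen where this was under 0.05. By this rule 7 of the 11 tested probes rose (63.6%), where 8.12% of all tested probes rose and 7.7% fell. The median log2 difference of the 11 was 0.80, against 0.00022 over all tested probes. All 11 differences were positive, as were 50.03% of all tested probes. Every array had the same median signal, so the median and the share over all tested probes serve only as a reference. For 10 of the 11 probes the lower Las1L array exceeded the higher control, where 28% of all tested probes did so.

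The calls rest on the shared variance. Without the signal-dependent prior limma passed 0 of 17689 probes (0%), with 4266 at an unadjusted p under 0.05, 7 of them probes of these genes, and the 7 probes that rose had adjusted p-values between 0.0555 and 0.103. With either Las1L array left out, 0 of all 17689 probes passed, LAS1L and the 11 probes included. Without control replicate 1 the test passed 4 of the 11 and 1155 of all probes, and without control replicate 2 it passed 5 and 1495. An exact two-sided permutation test of 2 arrays against 2 cannot go below p = 0.333.

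**Figure D1:**
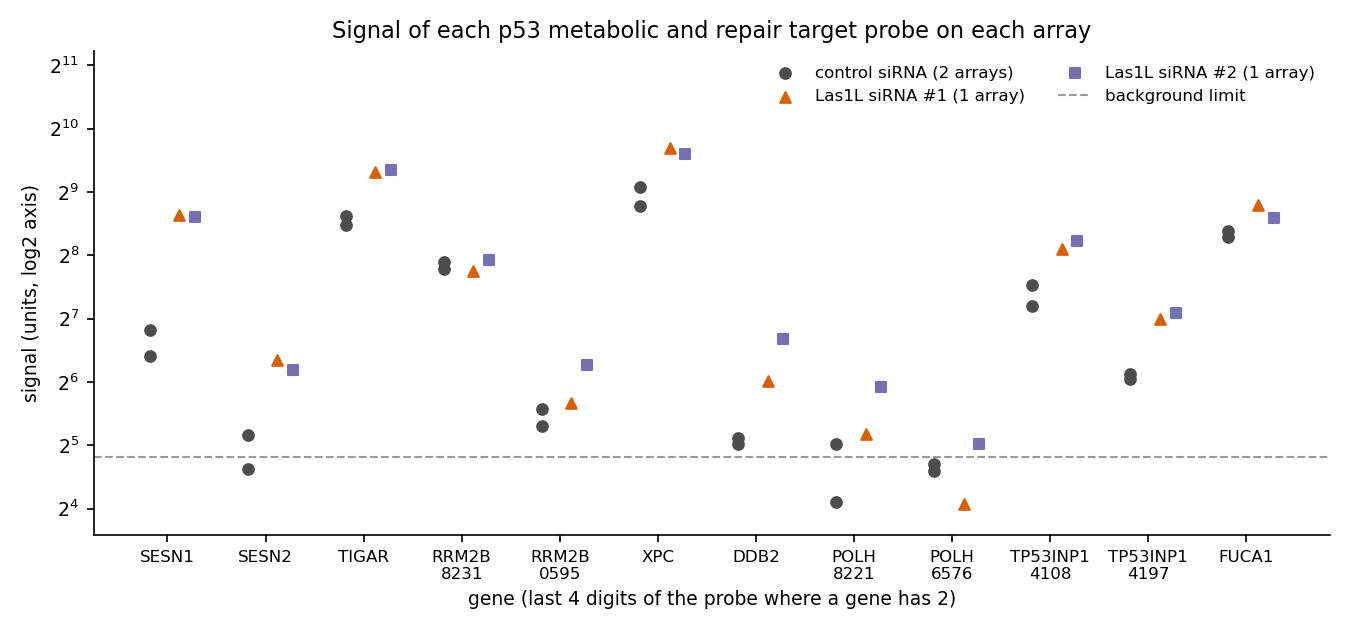
Signal in units (log2 axis) of the 12 probes on each array, with the dashed line at the background limit of 28.1 units; circles are the 2 control arrays, triangles siRNA #1 and squares siRNA #2. For SESN1 the Las1L arrays sit at 396.7 and 391.1 against 113.3 and 84.7, while one RRM2B probe and one POLH probe overlap between groups.

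**Figure D2:**
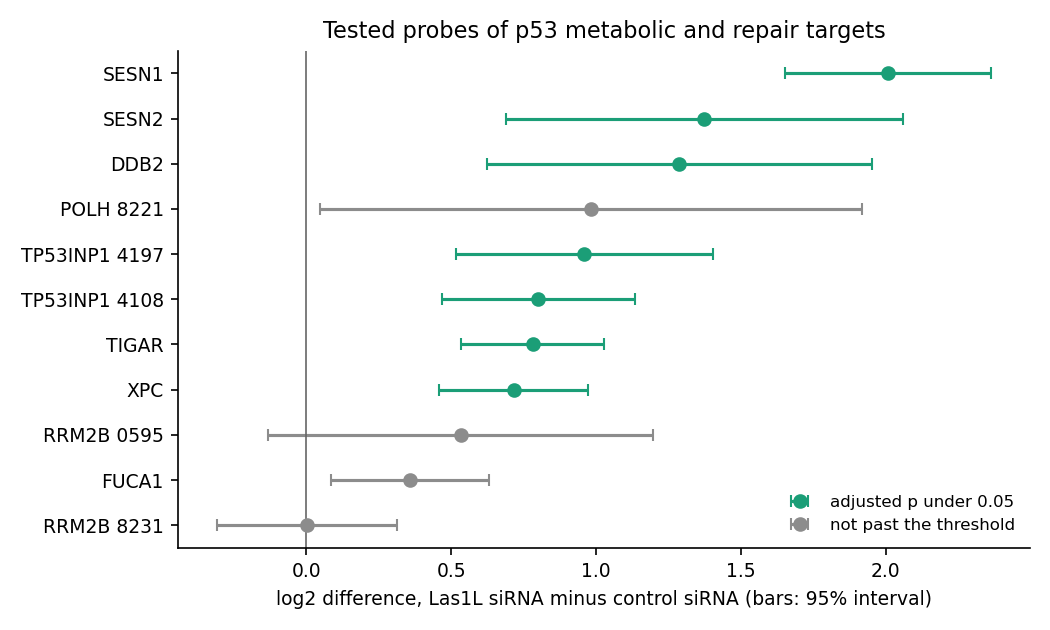
Log2 difference (Las1L siRNA minus control siRNA) of the 11 tested probes with 95% intervals from limma; green marks adjusted p under 0.05. SESN1 lies at 2.01 and one RRM2B probe at 0.0034.

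The sestrins SESN1 and SESN2 restrain the growth kinase complex mTORC1 and support the regeneration of peroxiredoxins. SESN1 (ILMN_1800626) read 113.3 and 84.7 units in the controls, against 396.7 for siRNA #1 and 391.1 for siRNA #2. The lower Las1L array was 3.45-fold above the higher control, while the 2 controls differed by 1.34-fold and the Las1L arrays by 1.01-fold. Its log2 difference of 2.01 (SE 0.17, adjusted p = 1.3e-06 in limma) ranked 24 from the top of 17689 probes. With 64 units added before the logarithm in place of the floor, SESN1 was 2.82-fold higher.

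SESN2 (ILMN_1751598) was dim. It read 24.6 and 35.8 units in the controls, 81.3 with siRNA #1 and 72.8 with siRNA #2, so that 1 control array lay under the background limit. The groups did not overlap, and the log2 difference was 1.37 (SE 0.32, adjusted p = 0.0084 in limma). Adding 64 units made it 1.5-fold, which still passed, but the call was lost without control replicate 1 (adjusted p = 0.0854 in limma). The third family member, SESN3, read between 2.1 and 12.6 units and was not tested.

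The named genes whose log2 profile over the 4 arrays, centred on the control mean, lay nearest to that of SESN1 in Euclidean distance were IFIT2 (0.14), IGSF9 (0.22) and CHST6 (0.26), out of 10465 compared. All 3 read under the background limit on both control arrays, unlike SESN1.

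Promoter sequence from RefSeq (GRCh38.p14) was searched in windows from 250 bases before to 50 after each annotated start, for exact matches to the 10-base p53 decamer motif, which reads the same on both strands. Of the 10 genes 8 matched a window and RRM2B and TP53INP1 did not. Of their 12 windows 3 held a decamer (25%), 1 each of SESN1, DDB2 and FDXR, where 6.63% of all 35116 windows did. The SESN1 stretch is shown because SESN1 had the highest difference of the 11 probes. It lies before 1 of 3 annotated starts, at chr6:109008989-109009108 on the minus strand, with the decamer in capitals 49 bases before the start.
SESN1: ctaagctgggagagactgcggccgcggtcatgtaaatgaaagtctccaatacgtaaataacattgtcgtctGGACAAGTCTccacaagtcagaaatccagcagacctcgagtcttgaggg
One DDB2 window held 2 decamers separated by 1 base. Only 10 of the 35116 windows (0.0285%) held 2 decamers at most 13 bases apart. The site is shown for that reason, at chr11:47214975-47215004 on the plus strand, with the decamers in capitals, the first beginning 6 bases into the transcript from the second annotated start.
DDB2: gtttGAACAAGCCCtGGGCATGTTTggcgg
A match describes these letters and was not tested for binding.

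DDB2 and XPC act at the start of nucleotide excision repair, where DDB2 binds ultraviolet lesions in chromatin and XPC binds the distorted helix. XPC (ILMN_1790807) read 540.9 and 437.5 units in the controls, 825.1 with siRNA #1 and 773.5 with siRNA #2. The groups stood apart, and XPC rose by 0.72 on the log2 scale (SE 0.12, adjusted p = 7.9e-04 in limma). DDB2 (ILMN_1660817), whose promoter holds the paired decamers shown above, read 32.4 and 34.5 units in the controls, just over the background limit. It read 65 with siRNA #1 and 102.5 with siRNA #2, a 1.58-fold spread between the siRNAs. Its log2 difference was 1.29 (SE 0.31, adjusted p = 0.0105 in limma), and it was 1.5-fold after adding 64 units. The DDB2 call was lost with any 1 of the 4 arrays left out (adjusted p between 0.0681 and 0.263 in limma).

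The partners DDB1 and RAD23B did not pass the test. DDB1, which forms the damage-binding complex with DDB2, had 3 tested probes with log2 differences of 0.23, -0.03 and -0.10. RAD23B, which stabilises XPC, had one of -0.12. Of 23 tested nucleotide excision repair genes other than XPC and DDB2, 3 rose (among them ERCC2 by 0.60 and GTF2H5 by 0.44) and 0 fell, with a median of -0.03. This count takes the brightest tested probe of each gene, by which 9.64% of 10466 named genes rose and 9.17% fell.

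POLH encodes the translesion polymerase eta, which copies past ultraviolet lesions. Its probe ILMN_1658221 read 32.6 and 17.3 units in the controls, 36.3 with siRNA #1 and 60.6 with siRNA #2, so that 1 control lay under the background limit. The lower Las1L array was 1.11-fold above the higher control, while the controls themselves differed by 1.88-fold. The log2 difference was 0.98 (SE 0.44, adjusted p = 0.149 in limma), with a 95% interval from 0.05 to 1.92. That difference was 0.34 after adding 64 units and 0.14 with a floor of 50. The second probe, ILMN_2136576, read 26.1, 24.1, 16.8 and 32.3 units in the same order. It exceeded the background limit on 1 array, was not tested, and overlapped between groups. Of 11 tested translesion synthesis genes 0 rose and 4 fell, where 9.64% of all named genes rose and 9.17% fell. Those that fell included the polymerase delta subunit POLD3, at a log2 difference of -1.56 with 1 Las1L array under the background limit. USP1, which removes ubiquitin from PCNA, fell by 0.54.

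RRM2B encodes the p53-inducible small subunit of ribonucleotide reductase, which makes deoxynucleotides for repair outside S phase. Its brighter probe, ILMN_1698231, read 220.1 and 238.1 units in the controls, 216.4 with siRNA #1 and 243.3 with siRNA #2. These overlapped, and the log2 difference was 0.0034 with a 95% interval from -0.31 to 0.31. The dimmer probe, ILMN_2170595, read 39.7, 47.5, 51 and 77.4 units in that order, a log2 difference of 0.53 (SE 0.31, adjusted p = 0.279 in limma). The 2 probes thus gave unlike values, and neither passed. The S-phase small subunit RRM2 fell by 0.60 (adjusted p = 0.0067 in limma), and the large subunit RRM1 had a log2 difference of -0.26 (adjusted p = 0.0594 in limma).

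TIGAR lowers fructose-2,6-bisphosphate and so diverts glucose from glycolysis into the pentose phosphate pathway. Its probe (ILMN_1791792) read 394.3 and 357.4 units in the controls, 639.2 with siRNA #1 and 651.1 with siRNA #2. The arrays within each group lay close together, 1.1-fold apart in the controls and 1.02-fold in the Las1L pair, and the groups did not overlap. TIGAR rose by 0.78 (SE 0.12, adjusted p = 2.7e-04 in limma). Over all named genes 9.64% rose and 9.17% fell. Among 14 tested genes, which were hexokinase HK2 and enzymes of fructose bisphosphate turnover and the pentose phosphate pathway, 1 rose and 0 fell. That 1 was HK2, which belongs to neither pathway, by 0.48 on its brighter probe. The other HK2 probe had a log2 difference of -0.00042.

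TP53INP1 is a nuclear stress protein that also takes part in autophagy through the ATG8 family. Its probe ILMN_1714108 read 147 and 184.2 units in the controls, 275 with siRNA #1 and 298.9 with siRNA #2, and rose by 0.80 (SE 0.16, adjusted p = 0.0025 in limma). Its probe ILMN_2214197 read 69.6 and 66.1 in the controls, 127.8 with siRNA #1 and 136.2 with siRNA #2, and rose by 0.96 (SE 0.21, adjusted p = 0.0051 in limma). Both probes placed the Las1L arrays above the controls, by at least 1.49-fold and 1.84-fold. The call of ILMN_1714108 was lost without control replicate 1 (adjusted p = 0.0603 in limma) and that of ILMN_2214197 without control replicate 2 (adjusted p = 0.0519 in limma). In the list of TP53INP partners and ATG8 genes 2 of 9 tested genes rose, MAP1LC3B by 1.19 and ULK1 by 0.61, and 0 fell. Over all named genes 9.64% rose and 9.17% fell.

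FUCA1 is the lysosomal enzyme that removes fucose from glycans. Its probe (ILMN_1752728) read 332.9 and 311.6 units in the controls, 442.5 with siRNA #1 and 385 with siRNA #2. The groups did not overlap, but the log2 difference of 0.36 (SE 0.13) missed the threshold with adjusted p = 0.0714 in limma, and its 95% interval ran from 0.09 to 0.63. It passed where only the brightest probe of each named gene was tested (adjusted p = 0.0491 in limma). Of 9 tested lysosomal glycosidases other than FUCA1, MANBA rose by 0.47 and GLA fell by 0.46. Over all named genes 9.64% rose and 9.17% fell.

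**Figure D3:**
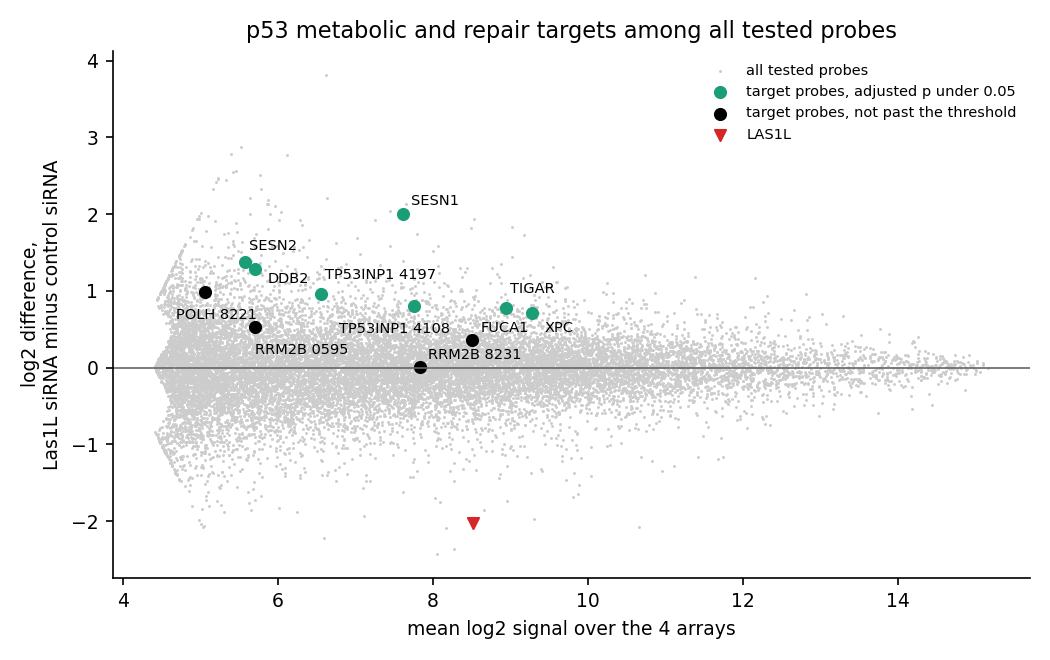
Log2 difference (Las1L siRNA minus control siRNA) against mean log2 signal over the 4 arrays for the 17689 tested probes (grey), with the 11 probes of the p53 metabolic and repair targets in green (adjusted p under 0.05) or black, and LAS1L as a red triangle. SESN1 stands at 2.01, and SESN2, DDB2 and POLH lie at low signal.

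Each siRNA was then set against the control pair, and the siRNAs against each other, to ask whether 1 of them carried the difference. This fit of 3 groups had 1 residual degree of freedom and assumes that a lone array varies like the controls. Both comparisons share the control arrays, so their values are given side by side. SESN1 had a log2 difference of 2.02 with siRNA #1 and 2.00 with siRNA #2. TIGAR had 0.77 and 0.79, XPC 0.76 and 0.67, and SESN2 1.45 and 1.29. The TP53INP1 probes had 0.74 and 0.91 with siRNA #1 and 0.86 and 1.01 with siRNA #2. DDB2 had 0.96 and 1.62, POLH 0.61 and 1.35, the dimmer RRM2B probe 0.23 and 0.83, and FUCA1 0.46 and 0.26. The brighter RRM2B probe had -0.08 and 0.09, on either side of 0. The median of the 11 was 0.76 with siRNA #1 and 0.86 with siRNA #2.

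For either siRNA limma passed 0 of the 11 probes after adjustment, where 0% of all tested probes passed. At an unadjusted p under 0.05 siRNA #1 had 8 of the 11, where 17.5% of all tested probes did, and siRNA #2 had 8, where 18.8% did. When the fit took only probes over the limit on every array, 5 of 9 probes passed for siRNA #1, where 12.9% of all probes did, and 6 of 9 for siRNA #2, where 15.1% did. SESN1, TIGAR, XPC and TP53INP1 were among those that passed for each siRNA, and DDB2 passed for siRNA #2.

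Directly between the siRNAs limma passed 0 of the 11 probes (adjusted p = 1 for each), where 0% of all tested probes passed. At an unadjusted p under 0.05 there were also 0 of the 11, where 2.44% of all tested probes were. The difference, siRNA #2 minus siRNA #1, was -0.02 for SESN1 with a 95% interval from -0.71 to 0.67, and 0.03 for TIGAR from -0.39 to 0.45. It was 0.66 for DDB2 from -0.24 to 1.55, and 0.74 for POLH from -0.83 to 2.31. These intervals are wide, so the siRNAs are not shown to act alike on any of these probes.

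**Figure D4:**
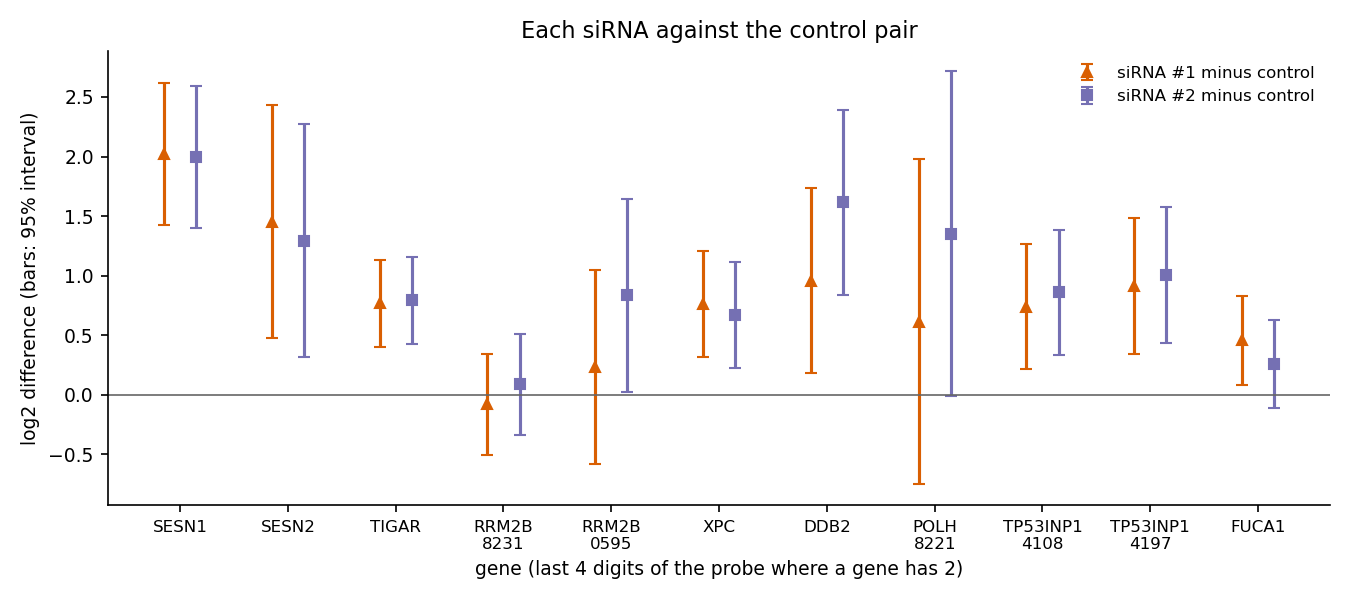
Log2 difference of each siRNA from the control pair for the 11 tested probes, with 95% intervals from the fit of 3 groups; triangles are siRNA #1 and squares siRNA #2. SESN1 is near 2.0 with both, while DDB2 reads 0.96 and 1.62 and the brighter RRM2B probe lies on either side of 0.

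Other genes of the p53 pathway and of the pathways around these targets were counted by the brightest tested probe of each gene. By that count 9.64% of 10466 named genes rose and 9.17% fell. Some genes counted below as risen or fallen had tested probes of opposite sign. Of 42 tested p53 targets outside the group described here, 21 rose and 2 fell, with a median log2 difference of 0.39. On their brightest tested probes the highest were TP53I3 (2.13), PHLDA3 (1.66), BAX (1.35) and CDKN1A (0.96). The dimmer tested CDKN1A probe (ILMN_1787212) rose by more, at 2.47. It read 3.3 and 15.2 units in the controls, under the floor of 16, so the size of its difference depends on that floor. The dimmer tested BAX probe rose by 0.74. Among 10 tested p53 regulators 3 rose, including the phosphatase PPM1D by 0.73 and CDKN2A by 0.53 on its brighter probe, and 0 fell. The other tested CDKN2A probe did not pass, at a log2 difference of 0.03. MDM2 missed the threshold at a log2 difference of 0.73 (adjusted p = 0.0744 in limma).

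In a list of growth signalling genes around the sestrins, not all of them downstream, 4 of 27 tested genes rose and 1 fell. The median log2 difference of these genes was 0.10. The AMP-activated kinase subunits PRKAG2 and PRKAA1 rose by 0.58 on their brightest probes. The other tested PRKAA1 probe rose by 0.89, while the other tested PRKAG2 probe did not pass, at 0.35. Of 12 tested peroxiredoxin and thioredoxin genes 2 rose, among them the mitochondrial peroxiredoxin PRDX3 by 0.94, and 2 fell, among them the antioxidant transcription factor NFE2L2 by 0.91. Of 11 tested deoxynucleotide genes 2 rose, including DUT by 0.59, and RRM2 alone fell. The other tested DUT probe did not pass, at 0.24. Of 12 tested ferredoxin and iron-sulfur genes, ISCU rose by 0.70 and 2 fell, including ISCA2 by 0.83. FDX1, the electron acceptor of FDXR, and POLK, a relative of POLH, each exceeded the background limit on at most 1 array and were not tested.

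**Figure D5:**
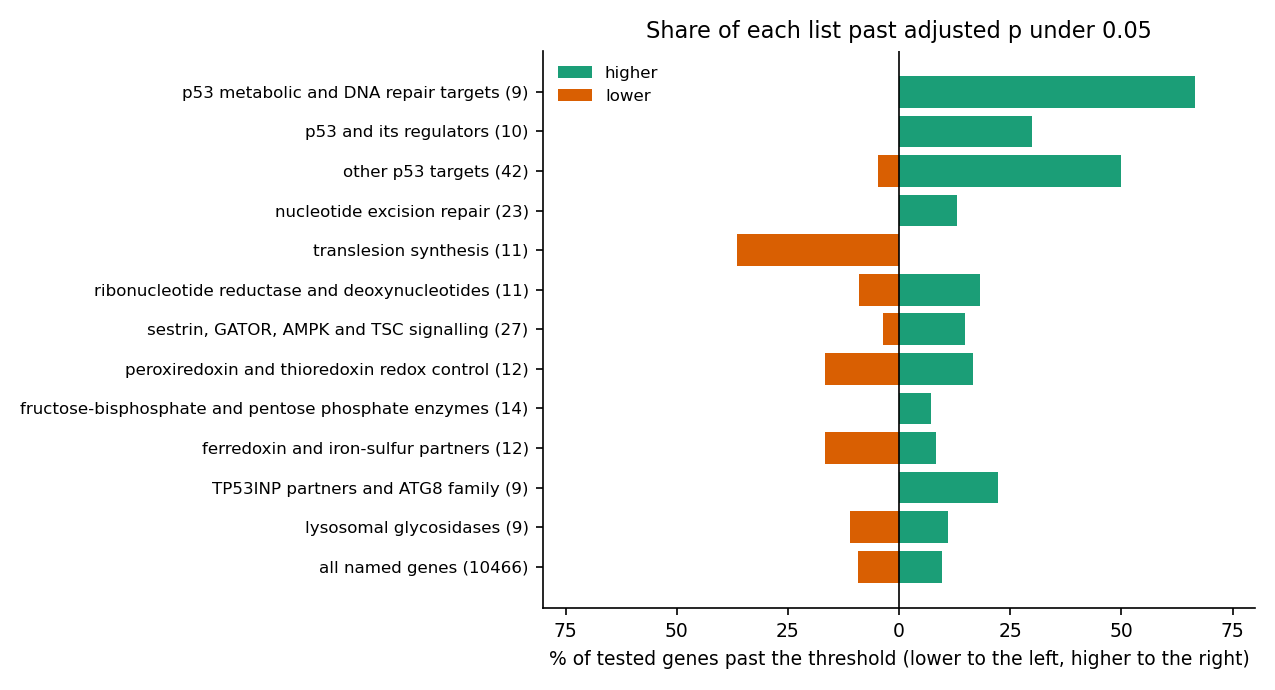
Share (%) of the tested genes of each list past adjusted p under 0.05, higher to the right and lower to the left, with the number of tested genes in brackets. The p53 metabolic and DNA repair targets show 6 of 9 higher, other p53 targets 21 of 42, and all named genes 9.64% higher and 9.17% lower.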

How the data were processed

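The deposited values are linear probe intensity from Illumina arrays. Per the submitters' processing notes they came from GenomeStudio, of which no version or setting was given in the sources used here. The scale was read from the values, which reach 37640.9, lie below 0 in 26.9% of cells and have the same median on each array. The 8 per-sample columns of a second table match no sample label and were left out. Probes were named from GEO's platform annotation (2016), with 30092 of 30113 single-symbol probes matched in RefSeq (GRCh38.p14), 8 probes with several symbols and 17202 with none.

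The background limit is the one-sided 0.05 point of noise whose root mean square, 17.1 units, is that of the values below 0. Probes above it on at least 2 arrays were fitted on log2 values, floored at 16, with lmFit and eBayes (limma 3.58.1, R 4.3.3). The prior variance weighed as 13.8 degrees of freedom beside 2 residual ones. The code of the fit was tested on simulated data with far fewer changed probes than were called here, which does not test these calls. The genes, lists, signal filter and variance trend were chosen with earlier results of these data known, among them that the fit without the trend passed no gene. Named beyond the 10 genes and their fixed partners were the called genes with the highest absolute log2 difference, up to 2 per list and 4 for other p53 targets. The alternatives were no trend, a robust prior, a floor of 50, an offset of 64, no filter, stricter filters, 1 probe per gene, a threshold of 0.1 and leaving out each array.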

Additional observations from a re-analysis of the deposited data

How the results depend on the processing

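The 2 arrays per group limit the precision, and probes near 28.1 units depend most on the floor. The 7 probes of the p53 metabolic and repair targets that rose became 0 with no trend, 0 with a floor of 50, 0 with no filter and between 0 and 5 with 1 array left out. The count was between 6 and 8 with a robust prior, an offset of 64, either stricter filter, 1 probe per gene or a threshold of 0.1. Over all probes 2798 passed, and 0 with no trend, 48 with a floor of 50, 0 with no filter and between 0 and 1495 with 1 array left out, which leaves fewer samples. The median log2 difference of 0.80 was 0.71 with a floor of 50 and 0.58 with the offset, and ran from 0.71 to 0.87 with 1 array left out. LAS1L stayed at -2.02 but missed the threshold with no trend, with a floor of 50 and with no filter (adjusted p = 0.0555, 0.0791 and 0.169 in limma), and ran from -2.23 to -1.81 with 1 array left out, missing the threshold without siRNA #1 (0.0705) and without siRNA #2 (0.0747). The brighter RRM2B probe changed sign, to -0.05 without control replicate 1 and to -0.081 without siRNA #2, and ran from -0.081 to 0.088 with 1 array left out. For siRNA #1 the count of 0 became 3 with a robust prior, 2 with a floor of 50, 6 with the offset, 5 for probes over the limit on all 4 arrays, 4 under the stricter limit, 1 with 1 probe per gene and 1 at 0.1, and for siRNA #2 it became 6, 4, 7, 6, 6, 1 and 1 in that order. Between the siRNAs it became 3 with a floor of 50 (POLH, DDB2 and the dimmer RRM2B probe), where both control values sat at that floor with no spread. Other causes were not tested. No paired analysis was possible because the numbers in the titles of the Las1L arrays name siRNAs, and their descriptions call both replicate #1.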
